A study of Mus musculus with 6 samples.

Results

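The genes described here are 10 components of the Notch pathway, chosen by their symbols: the receptors Notch1, Notch2 and Notch3, the ligands Dll1, Dll3 and Jag1, and the nuclear and feedback genes Hes1, Hes5, Hes6 and Nrarp. All 10 were found among the 24444 gene symbols of the deposited table, and all 10 were among the 14249 genes whose mean lay at least 1 above the lowest value of the table. The values come from poly(A) RNA-seq of what the labels give as telencephalon, the embryonic forebrain region from which cortex and basal ganglia arise, in mouse embryos at E12.5. The libraries are 3 of genotype Arl13b-/-, called Arl13b-null 1 to 3 here, and 3 of wild-type genotype, called wild-type 1 to 3, all on the C57BL/6J strain. Arl13b encodes an ARF-family GTPase found in cilia. The labels name no other allele or treatment, and do not say whether each library came from 1 embryo or from a pool. A p-value here sets a difference against the scatter of 3 libraries per group, some of which may be technical.

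Notch signalling passes between neighbouring cells. A ligand of the Delta or Jagged family on one cell binds a Notch receptor on the next, the receptor is cut, and its intracellular domain joins the DNA-binding protein Rbpj to switch on genes such as Hes1, Hes5 and Nrarp. In the embryonic telencephalon, radial glia, the dividing stem cells that line the ventricle, carry the receptors and express Hes1 and Hes5, basic helix-loop-helix repressors that hold back neuronal differentiation. Cells that are turning into neurons express Dll1 and Dll3, which proneural factors such as Neurog2 switch on, and Hes6, which counters Hes1. Nrarp is induced by Notch and dampens it.

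Promoter sequences are shown for 3 members whose levels are followed below and for Hey2, another Notch target, whose values lay below those of wild-type 2 and 3. They run from 250 bases before to 50 after the annotated start, 5′ to 3′ on the strand of the gene, and come from RefSeq on build GRCm38.p6, which is not the mm9 build named for these libraries. Capitals mark TGGGAA, the core of the Rbpj motif, and CAGNTG, an E-box form that proneural factors bind, each searched on both strands, where overlapping matches would count for each.
Hes5 (chr4:154960673-154960972, plus strand): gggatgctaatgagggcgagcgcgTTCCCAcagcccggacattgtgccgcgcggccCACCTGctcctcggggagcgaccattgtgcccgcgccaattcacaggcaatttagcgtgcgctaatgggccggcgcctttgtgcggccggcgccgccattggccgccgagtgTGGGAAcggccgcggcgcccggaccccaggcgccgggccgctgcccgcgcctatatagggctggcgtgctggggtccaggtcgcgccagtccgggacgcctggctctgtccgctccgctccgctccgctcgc
Nrarp (chr2:25180508-25180807, plus strand): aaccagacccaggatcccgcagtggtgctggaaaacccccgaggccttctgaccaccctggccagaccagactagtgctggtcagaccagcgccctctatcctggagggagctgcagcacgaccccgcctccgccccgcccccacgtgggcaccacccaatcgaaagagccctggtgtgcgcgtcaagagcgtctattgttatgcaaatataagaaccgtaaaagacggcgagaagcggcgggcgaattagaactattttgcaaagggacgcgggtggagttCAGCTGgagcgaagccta
Hes6 (chr1:91413173-91413472, minus strand): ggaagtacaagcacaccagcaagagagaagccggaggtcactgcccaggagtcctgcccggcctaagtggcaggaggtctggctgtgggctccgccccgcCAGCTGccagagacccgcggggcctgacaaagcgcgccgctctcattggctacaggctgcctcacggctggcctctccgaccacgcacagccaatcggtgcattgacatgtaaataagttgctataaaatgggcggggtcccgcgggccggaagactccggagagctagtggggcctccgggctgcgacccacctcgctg
Hey2 (chr10:30842734-30843033, minus strand): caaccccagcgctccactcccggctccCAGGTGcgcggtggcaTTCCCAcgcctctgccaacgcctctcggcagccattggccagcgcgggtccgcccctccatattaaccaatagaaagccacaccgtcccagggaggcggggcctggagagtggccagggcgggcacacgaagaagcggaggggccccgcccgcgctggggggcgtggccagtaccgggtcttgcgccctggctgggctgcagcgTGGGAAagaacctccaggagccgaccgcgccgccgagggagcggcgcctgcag
The Hes5 promoter held 2 matches to TGGGAA, which began at positions −226 and −82 from the start, and the Hey2 promoter held 2, at −207 and −3. At least 1 match was found in 25.6% of 32851 promoters of the same length, and 2 or more in 3.79%. The Hes5 and Hey2 windows also held CAGNTG, at −194 and −223. The Nrarp window and the Hes6 window printed here held no TGGGAA and 1 CAGNTG each. A second Hes6 start in the table, at chr1:91413989-91414288, had 3 CAGNTG, at −220, −171 and −164, and CAGNTG was found in 51.4% of promoters. Of the 10 members, 9 had a promoter in the RefSeq table, and Hes1 was not among them. Hes5 was the 1 member of those 9 with TGGGAA in a window, and Hey2 is no member.

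Arl13b-null 2 and wild-type 1, and in fewer lists Arl13b-null 3, stood apart from the other libraries in marker genes. The table holds variance-stabilised counts, which are on a log2-like scale, and undoing the transformation gave normalized counts, which summed to between 2.75e+07 and 3.62e+07 per library. Depth was between 2.76e+07 and 5.18e+07 reads by a rough estimate from the value of a single read, which did not give whole reads for all low genes. Arl13b-null 2 and wild-type 1 had far fewer transcripts of dividing cells: Top2a, a topoisomerase of cycling cells, had 17703, 52.4 and 20488 normalized counts in Arl13b-null 1 to 3, against 3873, 16248 and 17512 in wild-type 1 to 3. The same 2 libraries were rich in neuronal transcripts, with 171604 and 56844 normalized counts of Mapt, which encodes the axonal protein tau, against 9226 to 10015 in the other 4. Of 6 telencephalon genes, 3, 5 and 5 lay below both wild-type 2 and wild-type 3 in Arl13b-null 1 to 3, and 5 did in wild-type 1. Arl13b-null 2 had neither Xist, the transcript of the inactive X chromosome, at the level of Arl13b-null 1, Arl13b-null 3 and wild-type 1 (244 normalized counts, against 15101 to 19017) nor the Y-linked Kdm5d (0). Whether these 3 libraries hold the tissue and stage of their labels is in doubt and was not tested, and each value over 6 libraries carries that doubt. Arl13b itself had 492, 532 and 564 normalized counts in Arl13b-null 1 to 3 and 661, 553 and 560.0 in wild-type 1 to 3. Its difference was −0.14 ± 0.20 (SE, log2 scale; limma adjusted p = 0.990), and a value for the whole gene does not check the genotype. Results are therefore given for all 6 libraries, for Arl13b-null 1 and 3 against wild-type 2 and 3 (called the 4-library comparison), and for that comparison without Arl13b-null 3.

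**Figure D1:**
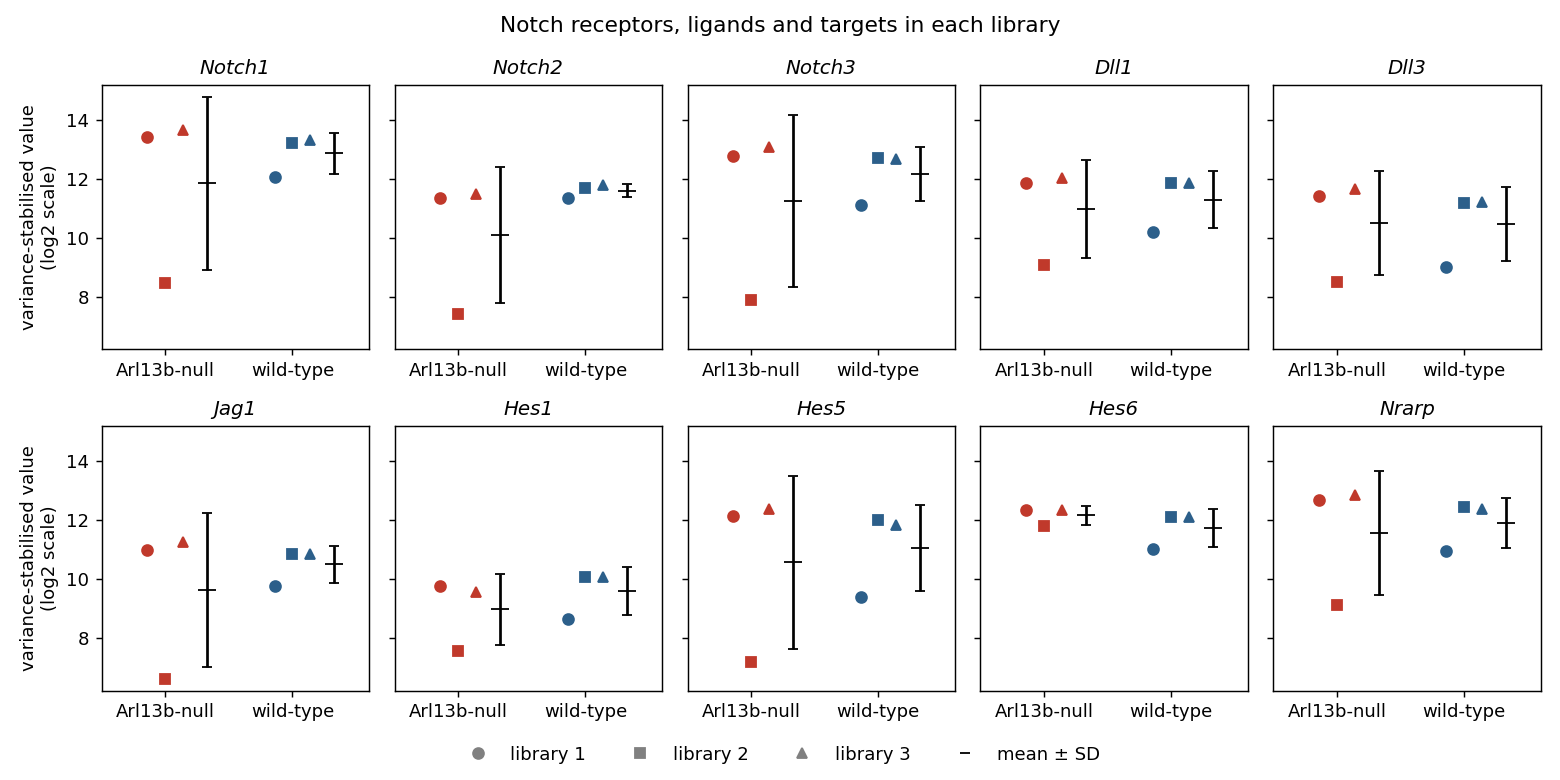
Variance-stabilised value (log2 scale) of each of the 10 Notch genes in every library, with Arl13b-null at left and wild-type at right in each panel. Symbols give the library number and black bars the mean ± SD of 3 libraries. Arl13b-null 2 and wild-type 1 lie below the other libraries of their group in each panel, least so for Hes6 in Arl13b-null 2.

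Among the receptors, Notch1 and Notch3 were lowest in Arl13b-null 2 and highest in Arl13b-null 3, and Notch2 followed another order. Notch1, the main receptor of radial glia, had 10904, 288 and 12975 normalized counts in Arl13b-null 1 to 3, against 4217, 9543 and 10102 in wild-type 1 to 3. Arl13b-null 1 and 3 lay above every wild-type library and Arl13b-null 2 below every one, so the groups overlapped. Notch3, a receptor shared by progenitors and the mural cells of vessels, had 7042, 173 and 8694 normalized counts in Arl13b-null 1 to 3 and 2146, 6663 and 6521 in wild-type 1 to 3. Its order of libraries was that of Notch1, except that wild-type 2 and 3 changed places. Notch2 had 2564, 109 and 2815 normalized counts in Arl13b-null 1 to 3, against 2540.1, 3207 and 3475 in wild-type 1 to 3. For Notch2 it was wild-type 2 and 3 that were highest, and wild-type 1 stood level with Arl13b-null 1.

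The ligands divided in Arl13b-null 2. Dll1, the Delta ligand of newborn neurons, had 3628, 469 and 4096 normalized counts in Arl13b-null 1 to 3, against 1095, 3622 and 3619 in wild-type 1 to 3. Dll3, a Delta-like protein that acts inside the cell that makes it, had 2669, 291 and 3151 in Arl13b-null 1 to 3 and 451, 2259 and 2321 in wild-type 1 to 3. Arl13b-null 1 and wild-type 2 and 3 were nearly equal for Dll1, whereas for Dll3 both Arl13b-null 1 and 3 were above all wild-type libraries. Jag1, a ligand of progenitor and vascular domains, had 1973, 40.6 and 2392 normalized counts in Arl13b-null 1 to 3 and 809, 1787 and 1778 in wild-type 1 to 3. In Arl13b-null 2 Jag1 stood at 2.28% of the mean of wild-type 2 and 3, as the receptors did at between 2.62% and 3.25%, while Dll1 and Dll3 stood at 13.0% and 12.7%.

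Of the Hes genes, Hes1 was lower and Hes5 and Hes6 were higher in Arl13b-null 1 and 3 than in wild-type 2 and 3. Hes1 had 803, 126 and 690.5 normalized counts in Arl13b-null 1 to 3, against 331, 1002 and 999 in wild-type 1 to 3. Hes5 had 4441, 84.1 and 5268 in Arl13b-null 1 to 3, against 598, 4013 and 3576 in wild-type 1 to 3. Each of the 2 repressors was lowest in Arl13b-null 2 and next lowest in wild-type 1, but only for Hes5 were the 2 highest libraries both Arl13b-null. Hes6 had 5165, 3489.6 and 5131 normalized counts in Arl13b-null 1 to 3 and 1987, 4389 and 4379 in wild-type 1 to 3. It was the one member whose lowest library was wild-type 1 and not Arl13b-null 2. Nrarp had 6508, 488 and 7346 normalized counts in Arl13b-null 1 to 3, against 1898, 5504 and 5250.3 in wild-type 1 to 3, which placed its libraries in the same order as those of Hes5.

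Scaled by the length of the longest coding transcript of each gene, Hes6, Hes5 and Nrarp were the most abundant members and Jag1 and Notch2 the least in the 4 libraries that resembled one another. In Arl13b-null 1 and 3 and wild-type 2 and 3, Hes6 had 3280 to 3869 normalized counts per kb, Hes5 2809 to 4138 and Nrarp 2033 to 2845, and neighbours in this order overlapped. Dll1 (1011 to 1144), Notch1 (1006 to 1368), Dll3 (863 to 1204) and Notch3 (814 to 1085) formed a second tier whose ranges of normalized counts per kb overlapped. Hes1, at 470.4 to 682 normalized counts per kb, stood apart below them, and Jag1 (317 to 426) and Notch2 (244 to 331) overlapped at the bottom. The annotation behind the deposited values is not given in the sources used here, so these per-length levels rest on GENCODE M21 lengths.

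Over all 6 libraries, no member differed between the genotypes beyond the spread of the libraries. In limma, 0 of the 10 members passed an adjusted p of 0.05, where 0 of 14249 genes (0%) did, and 0 members had an unadjusted p under 0.05, against 163 genes (1.14%), of which 0.112% were higher and 1.03% lower. The groups of 3 did not overlap for 0 members and for 8.26% of genes, 4.67% higher and 3.59% lower. The largest difference was that of Notch2, whose variance-stabilised level averaged 10.09 ± 2.31 in Arl13b-null libraries and 11.61 ± 0.23 in wild-type libraries (SD, n = 3 each), a difference of −1.51 ± 1.13 (SE; limma adjusted p = 0.990). An exact permutation test on Notch2, two-sided, gave p = 0.3, and with 3 against 3 it cannot go below 0.1. Hes5 averaged 10.57 ± 2.93 and 11.07 ± 1.46 (SD, n = 3 each) in Arl13b-null and wild-type libraries, a difference of −0.50 ± 1.58 (SE; limma adjusted p = 0.990; exact permutation p = 1). Hes6, with the smallest spread, differed by 0.42 ± 0.37 (SE; limma adjusted p = 0.990; exact permutation p = 0.5). Of the 10 differences 8 were below 0, with a median of −0.56 against 0.0026 for all genes tested. Without Arl13b-null 2, 9 of the 10 were above 0 with a median of 0.66, and without wild-type 1, 9 were below 0 with a median of −1.16.

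The 2 libraries that stood apart carried less of each of the 10 genes than wild-type 2 and 3, and not in equal measure. In Arl13b-null 2 the median difference of the members from the mean of wild-type 2 and 3 was −3.77 on the log2 scale, with a range from −4.81 for Notch3 to −0.32 for Hes6, while the median over all genes tested was −0.093. In wild-type 1 the median was −1.45, from −2.53 for Hes5 to −0.39 for Notch2, against −0.049 for all genes tested. Hes6 stood at 79.6% of the mean of wild-type 2 and 3 in Arl13b-null 2 and at 45.3% in wild-type 1, whereas Hes5 stood at 2.22% and 15.8%. Notch2 showed the opposite contrast, at 3.25% in Arl13b-null 2 and 76.0% in wild-type 1.

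These differences ran beside those of whole cell lists. The mean of 18 cell cycle genes differed from that of wild-type 2 and 3 by −5.09 in Arl13b-null 2 and −2.03 in wild-type 1 (log2 scale). The mean of 17 genes of radial glia differed by −3.14 in Arl13b-null 2 and −0.38 in wild-type 1, and that of 14 genes of postmitotic neurons by 2.04 and 1.07. Lists of cells outside the neural lineage were also low in Arl13b-null 2: endothelium and pericytes differed by −2.37, head mesenchyme and meninges by −4.69, red blood cells by −4.52 and microglia by −1.23. In wild-type 1 the same lists differed by 0.54, −0.83, −1.11 and 0.35. Of the 10 red blood cell genes, 5 lay above and 5 below both wild-type 2 and wild-type 3 in wild-type 1, so that mean joined opposite changes. Notch3 and Jag1, which vessels also express, were low beside vascular as well as progenitor lists in Arl13b-null 2. In wild-type 1 they were low as well, at −1.59 and −1.08, where the endothelium and pericyte list was at 0.54. Summed over the radial glial list, normalized counts were 20501 in Arl13b-null 2 and 86736 in wild-type 1, against 144036 to 175246 in the other 4 libraries, and 14 of 17 genes in Arl13b-null 2 and 10 of 17 in wild-type 1 lay below both wild-type 2 and wild-type 3. Their part in the Notch values was not tested, and in bulk RNA fewer cells of a type and less RNA per cell cannot be told apart. Set against the mean of the radial glial list of its own library, Notch1 was at −1.66, Notch3 at −1.67 and Hes5 at −1.58 in Arl13b-null 2. There Dll1 was at 0.36, Dll3 at 0.42, Hes1 at 0.65 and Hes6 at 2.82. That list mean joined unlike changes. Its genes stood at between 1.19% (Nes) and 123% (Tnc) of the mean of wild-type 2 and 3, with Cdh2 at 95.9%. Nes, Vim, Prom1 and Nr2e1 stood lower than Notch1, Notch3 and Hes5, and the rest of the list stood higher than Hes5. The negative values are thus relative to the list mean and not to each of its genes. In wild-type 1 all 10 members were below the mean of the radial glial list, by a median difference of −1.07, with Hes5 at −2.16 and Notch2 at −0.0094. There 6 of the 17 genes of that list lay above both wild-type 2 and wild-type 3 and 10 below, so its mean joined opposite changes. Nes and Vim stood at 19.6% and 35.2% of the mean of wild-type 2 and 3 in wild-type 1.

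**Figure D2:**
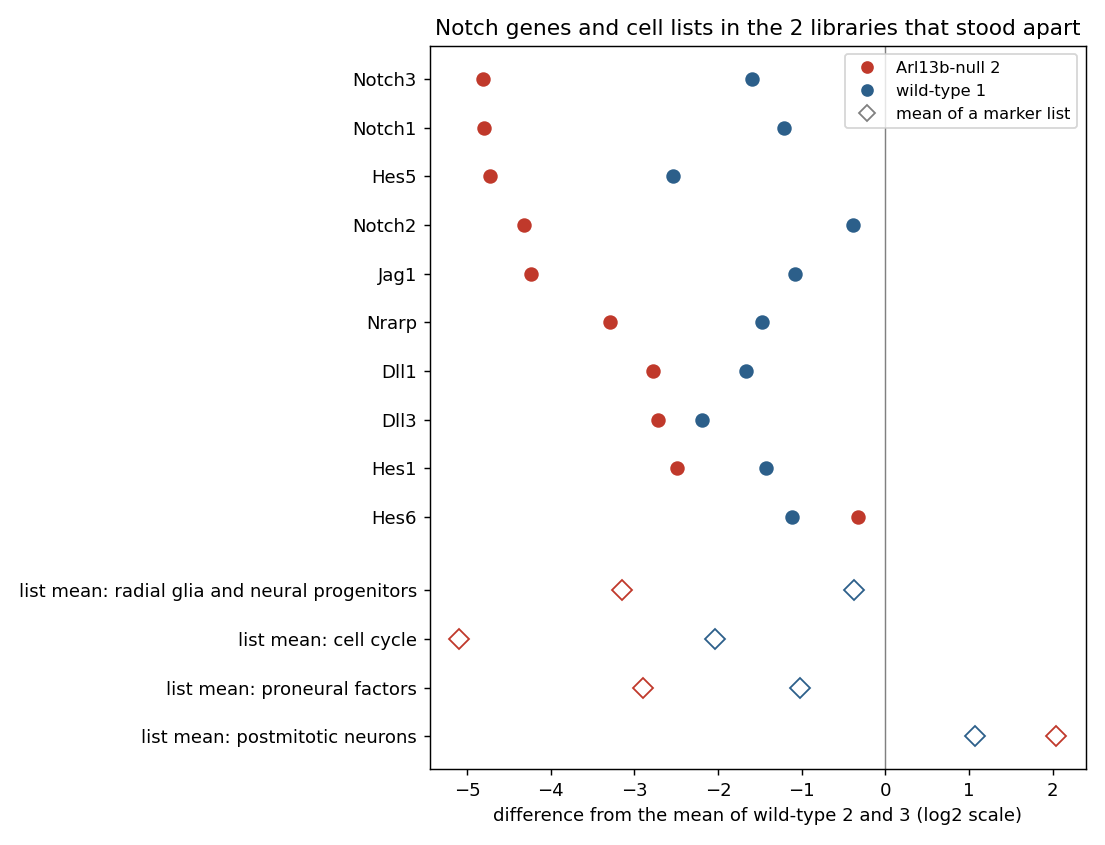
Difference of each Notch gene (filled circles) and of the mean of 4 gene lists (open diamonds) from the mean of wild-type 2 and 3, on the log2 scale, in Arl13b-null 2 (red) and wild-type 1 (blue). The receptors, Jag1 and Hes5 lie between −4.81 and −4.24 in Arl13b-null 2, Dll1, Dll3 and Hes1 between −2.78 and −2.50, and Hes6 at −0.32.

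In the 4-library comparison, 8 members had higher values in Arl13b-null 1 and 3 than in wild-type 2 and 3 and Notch2 and Hes1 had lower ones, without a single call. Nrarp differed by 0.36 ± 0.070 (SE, log2 scale, n = 2 per group; limma adjusted p = 0.132), Hes5 by 0.35 ± 0.098 (adjusted p = 0.227), Dll3 by 0.33 ± 0.085 (adjusted p = 0.198) and Hes6 by 0.23 ± 0.043 (adjusted p = 0.123), all from limma. These correspond to 1.29, 1.28, 1.27 and 1.17 times the mean normalized count of wild-type 2 and 3. Hes1 differed by −0.40 ± 0.083 (SE; limma adjusted p = 0.144) and Notch2 by −0.31 ± 0.069 (SE; limma adjusted p = 0.161), or 0.746 and 0.805 times the wild-type count. Notch1 (0.27 ± 0.090), Jag1 (0.28 ± 0.094), Notch3 (0.25 ± 0.10) and Dll1 (0.089 ± 0.068, SE) had limma adjusted p between 0.275 and 0.605.

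No member passed an adjusted p of 0.05 in limma, where 36 of 14249 genes (0.253%) did, 0.0702% higher and 0.182% lower. An unadjusted p under 0.05 was found for 8 of the 10, 6 higher and 2 lower, against 14.4% of all genes tested, 8.08% higher and 6.33% lower. The groups did not overlap for 10 of 10 members, 8 higher and 2 lower, against 47.5% of all genes, 29.3% higher and 18.1% lower. The median difference of the members was 0.26, against 0.023 for all genes tested. The direction of each of the 10 was the same when the libraries were centred on the radial glial list, with a median of 0.29. The mean of that list differed from that of wild-type 2 and 3 by only −0.0110 and −0.057 in Arl13b-null 1 and 3. Centring on it could therefore not have turned any of the 10 signs, and the part of radial glial content was not tested.

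**Figure D3:**
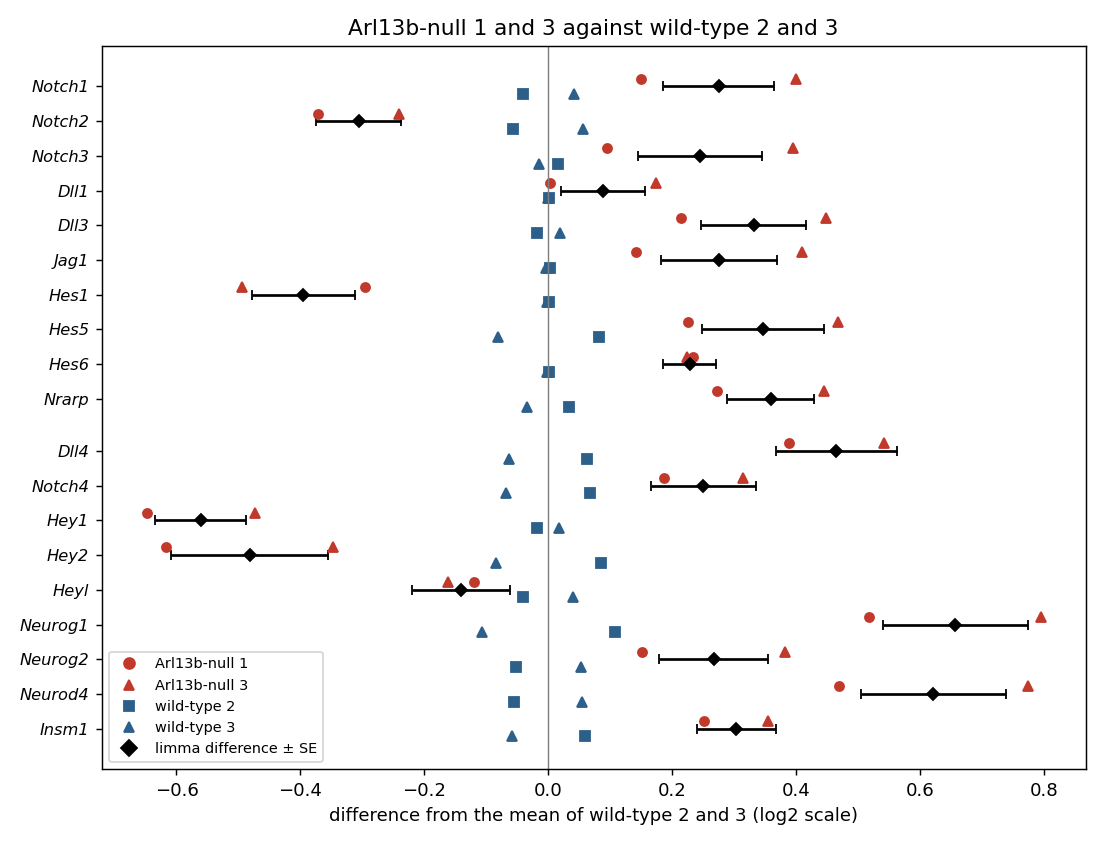
Differences from the mean of wild-type 2 and 3 on the log2 scale, for the 10 Notch genes (top) and 9 other genes of the pathway and of neurogenesis (bottom). Black diamonds give the limma difference ± SE, red symbols the 2 Arl13b-null libraries and blue symbols the 2 wild-type libraries. Notch2, Hes1, Hey1, Hey2 and Heyl lie left of 0 and the other 14 genes right of it.

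The differences were larger in Arl13b-null 3 than in Arl13b-null 1, with medians over the members of 0.40 and 0.15. Set alone against the mean of wild-type 2 and 3, Arl13b-null 3 gave differences of the members from −0.49 for Hes1 to 0.47 for Hes5. Arl13b-null 1 alone gave differences from −0.37 for Notch2 to 0.27 for Nrarp. Notch3 differed from wild-type 2 and 3 by 0.40 in Arl13b-null 3 and by 0.094 in Arl13b-null 1, and Dll1 by 0.17 and 0.0029. Hes6 was at 0.22 and 0.23, Hes1 at −0.49 and −0.30, Notch2 at −0.24 and −0.37 and Nrarp at 0.45 and 0.27. Each of the 10 members had the same sign in the 2 libraries. A fit with a lone Arl13b-null library takes the spread from the wild-type pair, and that library is assumed to vary as the pair does.

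Other things differed between the same 4 libraries. Xist had 16292 and 19017 normalized counts in Arl13b-null 1 and 3 and 26.5 and 213 in wild-type 2 and 3, and Kdm5d had 0 and 0.618 against 1568 and 1599, so sex and genotype cannot be told apart here. The mean of 14 surface ectoderm genes differed from that of wild-type 2 and 3 by −1.20 and −2.13 in Arl13b-null 1 and 3, and their summed normalized counts were 982 and 347, against 4945 and 2181 in wild-type 2 and 3, with 14 of 14 genes below both wild-type libraries in each. Krt5, a keratin of that list, had 179 and 2.46 normalized counts, against 917 and 487. That of 10 red blood cell genes differed by 0.50 and 1.69, and that of 11 mesenchymal genes by −0.65 and −0.59. The means of the lists of radial glia (−0.0110 and −0.057), the cell cycle (0.057 and 0.13) and endothelium and pericytes (0.092 and 0.25) differed by less. The radial glial mean joined opposite changes. In the 4-library comparison 10 of its 17 genes were above 0 and 7 below, from −1.40 for Tnc to 0.53 for Ednrb (log2 scale). The part of these lists in the Notch values was not tested.

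Ratios between members within a library do not depend on how the libraries were scaled. The ratio of Hes5 to Hes1 normalized counts was 5.53, 0.667 and 7.63 in Arl13b-null 1 to 3, against 1.81, 4.01 and 3.58 in wild-type 1 to 3. The ratio of Notch1 to Notch2 was 4.25, 2.65 and 4.61 in Arl13b-null 1 to 3, against 1.66, 2.98 and 2.91 in wild-type 1 to 3. For both pairs Arl13b-null 1 and 3 were above every wild-type library, and Arl13b-null 2 was within or below the wild-type range. The ratio of Hes5 to Hey1 was 3.89, 0.102 and 4.06 in Arl13b-null 1 to 3 and 0.821, 2.22 and 1.93 in wild-type 1 to 3, in the same arrangement as Hes5 to Hes1. Dll1 to Jag1 was 1.84, 11.6 and 1.71 in Arl13b-null 1 to 3 and 1.35, 2.03 and 2.04 in wild-type 1 to 3, and here Arl13b-null 2 alone was far from the others. These ratios were chosen after the values were seen and were not tested.

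**Figure D4:**
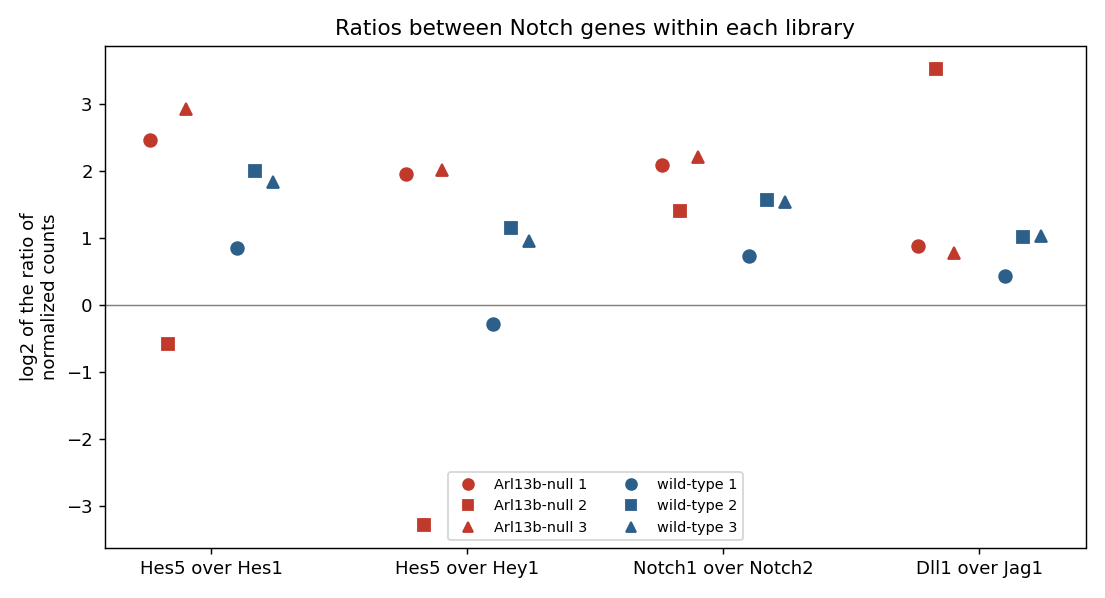
Log2 of the ratio of normalized counts of 2 genes within each library, for 4 pairs, with Arl13b-null libraries in red at left and wild-type libraries in blue at right. For Hes5 over Hes1 and Notch1 over Notch2, Arl13b-null 1 and 3 are above the 3 wild-type libraries, and for Dll1 over Jag1 Arl13b-null 2 is at 3.53.

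The Hey genes, Notch targets related to Hes, had lower values in Arl13b-null 1 and 3 than in wild-type 2 and 3, and none passed in the 4-library comparison as set out above. For Hey1 and Heyl, the last looked up after its values were seen, wild-type 1 was lower still. Hey1 had 1141, 822 and 1297 normalized counts in Arl13b-null 1 to 3, against 729, 1804 and 1851 in wild-type 1 to 3. Arl13b-null 2 kept more Hey1 than wild-type 1 had, unlike Hes1 and Hes5. In the 4-library comparison Hey1 differed by −0.56 ± 0.073 (SE; limma adjusted p = 0.0692), the smallest among the pathway lists there, and Hey2 by −0.48 ± 0.13 (SE; limma adjusted p = 0.202). Hey1 passed after quantile normalization (limma adjusted p = 0.0493), as did 0.414% of all genes tested. It also passed with robust moderation (limma adjusted p = 0.0418), as did 0.688% of all genes tested. Hey2 had 144, 53.7 and 186 normalized counts in Arl13b-null 1 to 3 and 177, 272 and 235 in wild-type 1 to 3. Both Hes5 and Hey2, which lay on opposite sides of wild-type 2 and 3, held 2 TGGGAA in the promoter windows printed above. Of 17 other Hes, Hey and partner genes, 16 were tested and 0 passed in either comparison (limma adjusted p). In the 4-library one 3 higher and 3 lower had an unadjusted p under 0.05, where 8.08% and 6.33% of all genes did. The median difference of the 16 was 0.054, against 0.023 for all genes tested. Id4 and Id2, helix-loop-helix proteins without a DNA-binding domain, lay on opposite sides, at −0.48 ± 0.17 and 0.47 ± 0.11 (SE; limma adjusted p = 0.296 and 0.178).

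No other receptor or ligand passed the test in either comparison. Dll4, the Delta ligand of endothelium, had 322, 45.8 and 366 normalized counts in Arl13b-null 1 to 3, against 257, 245 and 219 in wild-type 1 to 3, and in the 4-library comparison it differed by 0.47 ± 0.098 (SE; limma adjusted p = 0.144). Notch4, an endothelial receptor, differed by 0.25 ± 0.084 (SE; limma adjusted p = 0.282). Nov, a secreted protein reported to bind Notch, was high in Arl13b-null 2 and wild-type 1, where the receptors were low. It had 40.7, 3232 and 32.0 normalized counts in Arl13b-null 1 to 3 and 452, 27.1 and 25.9 in wild-type 1 to 3. In Arl13b-null 1 and 3 Nov lay above wild-type 2 and 3, as Notch1 and Notch3 did and Notch2 did not. Dlk1, a Delta-like protein that lacks the domain by which Delta ligands bind Notch, had 8805, 61.6 and 7100.2 in Arl13b-null 1 to 3 and 2722, 8832 and 5401 in wild-type 1 to 3. Of 8 genes on this list 0 passed in either comparison (limma). In the 4-library one 2 were higher with an unadjusted p under 0.05, as were 8.08% of all genes tested. In that of 6 libraries 0 had an unadjusted p under 0.05, against 1.14% of all genes.

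The mean of 27 processing, glycosylation and trafficking genes was within 0.053 of that of wild-type 2 and 3 in every library, and 0 of 27 passed in either comparison (limma adjusted p). Single genes of that list differed more between libraries. Neurl1b, a ubiquitin ligase for ligands, had 178, 4858 and 162 normalized counts in Arl13b-null 1 to 3 and 1355, 239 and 242 in wild-type 1 to 3. Fbxw7, which marks the cut receptor for degradation, had 1519.8, 3766 and 1474 in Arl13b-null 1 to 3 and 1590.4, 1376 and 1557 in wild-type 1 to 3. Dtx4, a Deltex-type ubiquitin ligase, had 8271, 14891 and 10453 normalized counts in Arl13b-null 1 to 3, against 4686, 7651 and 6871 in wild-type 1 to 3. Its groups did not overlap over all 6 libraries, as for 1 of the 27 genes of the list and for 8.26% of all genes tested (4.67% higher), and the difference of 0.79 ± 0.30 (SE) had a limma adjusted p of 0.990 and an exact two-sided permutation p of 0.1, the smallest possible. Of 11 genes of the nuclear complex, 0 passed in either comparison (limma adjusted p). In the 4-library one 1, the co-activator Maml3 (0.21 ± 0.078), was higher with an unadjusted p under 0.05, as were 8.08% of all genes tested. Kat2a, an acetyltransferase, was the 1 gene of these 11 that did not overlap between the groups of 3, where 4.67% of all genes tested were higher without overlap, with 2854, 4310.4 and 2921 normalized counts in Arl13b-null 1 to 3, against 2347, 2657 and 2815 in wild-type 1 to 3 (difference 0.34 ± 0.22, SE; limma adjusted p = 0.990). Kat2b, its close relative, had 623, 98.5 and 580.4 in Arl13b-null 1 to 3 and 504, 598 and 623 in wild-type 1 to 3, and the co-activator Maml1 had 2585, 561 and 2841 in Arl13b-null 1 to 3 and 1222, 2526 and 2484 in wild-type 1 to 3.

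The proneural factors, which switch on Dll1 and Dll3, had values on the same side as those ligands in Arl13b-null 1 and 3. Neurog1 had 1665, 0 and 2031 normalized counts in Arl13b-null 1 to 3 and 93.4, 1235 and 1055 in wild-type 1 to 3. Neurod4, a later factor of the cascade, had 678, 2.62 and 853 in Arl13b-null 1 to 3 and 167, 451 and 492 in wild-type 1 to 3. In the 4-library comparison they differed by 0.66 ± 0.12 and 0.62 ± 0.12 (SE; limma adjusted p = 0.115 and 0.123), and Neurog2 and Insm1 by 0.27 ± 0.088 and 0.30 ± 0.064 (SE). All 7 factors tested, of 8 on the list, were above 0 with a median of 0.30, against 0.023 for all genes tested. Of the 7, 0 passed (limma adjusted p), and 5 were higher with an unadjusted p under 0.05, as were 8.08% of all genes. Over all 6 libraries 6 of the 7 were below 0 and 0 passed (limma), none with an unadjusted p under 0.05.

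The genes whose levels followed a member most closely over the 6 libraries were found by the root mean square difference of the 2 profiles, each centred on its own mean. Among the nearest to Notch1 were Ptpn13 (0.12 on the log2 scale), Pdpn (0.12) and Onecut2 (0.12), with Notch3 at 0.14 and Jag1 at 0.21. Nearest to Dll1 were Polq (0.063), Pctp (0.069), Orc1 (0.076) and Haus6 (0.078), of which Polq, Orc1 and Haus6 act in DNA repair, replication and the spindle. Among the members Dll3 (0.26) and Nrarp (0.27) were nearest to Dll1. Nearest to Hes5 were Pax3 (0.20), a transcription factor of the dorsal neural tube, Peg12 (0.21), Clspn (0.23) and Kif2c (0.24), the last 2 of replication and mitosis, and the nearest member was Notch3 (0.38). The profiles share the same 6 libraries, depth and normalization, and the values are a description.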

How the data were processed

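For 24444 gene symbols in 3 Arl13b-null and 3 wild-type libraries, the deposited values are log2-like: counts that the authors normalized and variance-stabilised. The build mm9, the aligner STAR 2.6.0, Salmon 0.9.1, CASAVA, and both DESeq2 and DESeq 1.16.1 are named per the submitters' processing notes, without their order; the annotation is not given in the sources used here. The lowest value, 5.13, is shared by all libraries and is the transformed count of 0. It fixes the constant of the transformation, which was inverted to give normalized counts. Low values (under 30 reads) came out whole, within a tolerance of 0.05, for 69.5% to 79.7% of genes per library. That share was too low to recover reads, and count models were not used.

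Genes with a mean at least 1 above the lowest value were tested with limma 3.58.1 in R 4.3.3 (mean-variance trend, two-sided, Benjamini-Hochberg adjustment over all genes tested, threshold 0.05). A difference is one of mean variance-stabilised values, Arl13b-null minus wild-type, and understates changes of low genes. Exact permutation used scipy 1.17.1. The limma test was run on simulated data with planted differences far larger than those of the members between the groups. That simulation does not show whether differences as small as those of the members would be found. The members, the lists and the 4-library comparison were chosen with earlier results of these data known. Besides the 10 members, the text names the 2 genes with the smallest p of each other pathway list in each comparison, 4 genes nearest to Notch1, Dll1 and Hes5, and at most 2 markers of a list, those with the highest mean; Heyl was added after its values were seen. Some genes that this rule names are not reported here. Alternatives were other filters, scalings, moderation, a replicate block and leaving out each library. Figures were drawn with matplotlib 3.10.9.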

Additional observations from a re-analysis of the deposited data

How the results depend on the processing

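Over 6 libraries the count of genes past the threshold was 0, and it was 3 with no filter on low values, 36 without both Arl13b-null 2 and wild-type 1, and 0 to 4 when 1 library was left out (4 without wild-type 1). In the 4-library comparison it was 36, and it was 1 with no filter, 59 after quantile normalization, 7 with no mean-variance trend, 98 with robust moderation, and 6 to 725 when 1 library was left out. The count of Notch members was 0 to 7 when 1 of the 4 was left out, and 0 under every other alternative run in either comparison. Members passed only without Arl13b-null 1, the setting that also gave the highest count of all genes. There Arl13b-null 3, whose tissue is in doubt, stood alone against wild-type 2 and 3. The spread then came from the wild-type pair only, so nothing is concluded from the counts of that setting. The 10 members kept their direction in all 4-library alternatives. The causes of these changes were not tested.

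Centring on the radial glial list moved the median of all genes to 0.95 over 6 libraries and turned the sign of Notch3 (0.035), Dll1 (0.63), Jag1 (0.075), Hes1 (0.33), Hes5 (0.45), Nrarp (0.58), Dll4 (0.71), Hey1 (0.62), Hey2 (0.26), Insm1 (0.34), Kat2b (0.32), Maml1 (0.67), Maml3 (0.32), Neurod4 (0.58), Neurog1 (0.67) and Notch4 (0.71), of which all lie below that median. Quantile normalization turned Dll4 (0.012) and Neurog1 (0.037), and in the 4-library comparison the radial glial centring turned Kat2b (0.015).

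Leaving out 1 of 6 libraries gave differences from -1.92 to 0.68 for Notch1, -1.83 to 0.77 for Notch3, -0.87 to 0.64 for Dll1, -0.69 to 1.06 for Dll3, -1.69 to 0.63 for Jag1, -1.10 to 0.081 for Hes1, -1.41 to 1.19 for Hes5 and -1.02 to 0.85 for Nrarp. The ranges were -2.46 to 0.63 for Dlk1, -0.60 to 0.47 for Dll4, -0.0074 to 0.65 for Fbxw7, -1.13 to 0.40 for Insm1, -0.99 to 0.064 for Kat2b, -0.66 to 0.44 for Maml1, -1.17 to 0.36 for Maml3, -1.12 to 1.10 for Neurl1b, -1.14 to 1.03 for Neurod4, -1.31 to 1.64 for Neurog1, -2.25 to 0.72 for Neurog2, -0.56 to 0.35 for Notch4 and -0.70 to 1.91 for Nov. Among the 4 libraries they were -0.16 to 0.54 for Dlk1, -0.055 to 0.12 for Fbxw7 and -0.065 to 0.027 for Kat2b.

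The labels do not say what a replicate number stands for. Deviations from the group means correlated at -0.71, -0.71 and 0.62 between libraries of the same number, so the numbers were not used as pairs. Arl13b-null 2 and wild-type 1, of different numbers, correlated at 0.71, and such values cannot show whether a number marks a shared litter or batch. With the replicate number as a block, 0 genes passed and 111 had an unadjusted p under 0.05, against 163 without it. The 4-library groups share 1 number, so no block could be fitted there. With 2 or 3 libraries per group, differences under the spread of the libraries were not detectable.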
